A study of Mus musculus with 6 samples.

Results

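The 10 transcripts described here encode the core of the Hippo pathway: the kinases MST2 (Stk3), MST1 (Stk4), LATS1 (Lats1) and LATS2 (Lats2), the scaffold SAV1 (Sav1), the coactivators YAP (Yap1) and TAZ (Wwtr1), and the DNA-binding TEAD factors (Tead1, Tead2 and Tead3). They are the 10 of 54532 genes of the expression table that carry these names, 1 row each. RNA was sequenced from 3 libraries labelled PP2Ac knockdown (title code sh2) and 3 labelled control (title code shc). All 6 carry the label MIN6, a mouse insulinoma line used as a model of the pancreatic beta cell, and PP2Ac is the catalytic subunit of the protein phosphatase PP2A. The labels do not spell out the title codes, name no other treatment, and do not say whether replicates are separate cultures, so the p-values below measure only the spread between these libraries. In the table the symbol Taz names another gene, tafazzin, and Mst1 a growth factor-like gene. Neither is a member.

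In the Hippo pathway, the MST kinases bound to SAV1 activate the LATS kinases, and LATS phosphorylates YAP and TAZ, which holds both outside the nucleus and promotes their destruction. Unphosphorylated YAP and TAZ enter the nucleus and bind TEAD factors on DNA, where they switch on genes of growth, matrix and cytoskeleton. PP2A is part of a striatin-based assembly, STRIPAK, that removes activating phosphates from the MST kinases. Mature beta cells are known to lose YAP as they form from pancreatic progenitors. These steps act largely on proteins, and RNA levels do not report phosphorylation or the place of a protein in the cell.

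Recovered reads came to 14614737 to 16030939 per library, and the members had between 284 (Stk3) and 3667 (Wwtr1) reads in a library. The targeted transcript, Ppp2ca, had 10.1, 11.4 and 10.9 FPKM (reads scaled by gene length and by library size) in the knockdown libraries, against 42.5, 34.6 and 35.6 FPKM in the control libraries. Ppp2cb, which encodes the other form of the catalytic subunit, averaged 86.9 FPKM in knockdown and 101 FPKM in control (limma adjusted p = 0.0660). In both groups it was thus the more abundant of the pair. The MIN6 label went against the defining markers of beta cells: Ins1, Ins2, Nkx6-1, Slc2a2 and Ucn3 were listed at 0 in all 6 libraries, and 8 of 10 beta cell markers had a mean FPKM under 1. The summed level of the 10 beta cell markers ran from 7.99 to 9.57 FPKM in knockdown and from 2.98 to 4.65 FPKM in control. Of 10 fibroblast and stromal markers, the 6 with a mean FPKM of at least 1 were all higher in knockdown. The list, mostly Vim, summed to 1151 to 1314 FPKM in knockdown and 504 to 577 FPKM in control, with Lum at 0. Vim alone averaged 952 FPKM in knockdown and 426 FPKM in control. The 10 acinar and duct markers, mostly Spp1, summed to 354 to 393 FPKM in knockdown and 681 to 849 FPKM in control, with Amy2a5 and Ptf1a among those at 0. Of the 3 genes of that list that entered the test, Spp1 and Sox9 were lower and the acinar marker Cela1 was higher, with 66, 77 and 61 reads in knockdown and 11, 0 and 1 reads in control (limma adjusted p = 0.000117). The 7 immune markers, mostly Cd68, summed to 2.07 to 2.66 FPKM in knockdown and 14.3 to 20.9 FPKM in control, with Adgre1, Itgam and Cd3e among those at 0. The 6 endothelial markers, mostly Eng, summed to 2.98 to 3.10 FPKM in knockdown and 1.15 to 1.45 FPKM in control. The 7 markers of other islet cells, mostly Irx2, summed to 17.7 to 21.5 FPKM in knockdown and 15.8 to 17.8 FPKM in control. The part of these differences in the results below was not tested, and a change in the share of cells cannot be told apart from a change in RNA per cell.

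Of the 10 members, 3 rose in knockdown (Yap1, Tead2 and Tead3), 4 fell (Wwtr1, Tead1, Lats1 and Stk3) and 3 did not pass the threshold (Lats2, Stk4 and Sav1). The test was limma on log2(FPKM + 1) with a Benjamini-Hochberg adjusted p of 0.05. Over all 11652 genes tested, 62.4% passed, with 33.3% higher and 29.1% lower, so 7 of 10 is close to the share of all genes. The members' median change was 0.06 on the log2 scale, against 0.03 over all tested genes. Limma voom on recovered reads called the same 7, against 63.3% of all tested genes. Knockdown and control libraries did not overlap for those 7 members, against 68.1% of all tested genes. A called change of at least 1 on the log2 scale was seen upward for 1 member, Tead2 (5.05% of all tested genes), and downward for 0 members (4.81% of all tested genes). Both counts depend on the processing. Lats1 went past this size with limma voom (-1.12) and with pseudocounts of 0.1 (-1.08) and 0.01 (-1.10). It also did so with protein-coding genes only (-1.05) and with mitochondrial genes, rRNA and Gm23935 removed (-1.03). Tead2 fell short of it with protein-coding genes only (0.96), quantile normalization (0.96) and median-of-ratios scaling (0.998). It also fell short with mitochondrial genes, rRNA and Gm23935 removed (0.98) and without knockdown library 2 (0.997). Within the YAP and TAZ pair and the TEAD family, called members changed in opposite directions, and of the 2 LATS and the 2 MST genes 1 each fell. All 10 members lay above the filter in both groups, with a lowest value of 3.00 FPKM (Stk3 in knockdown library 1).

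**Figure D1:**
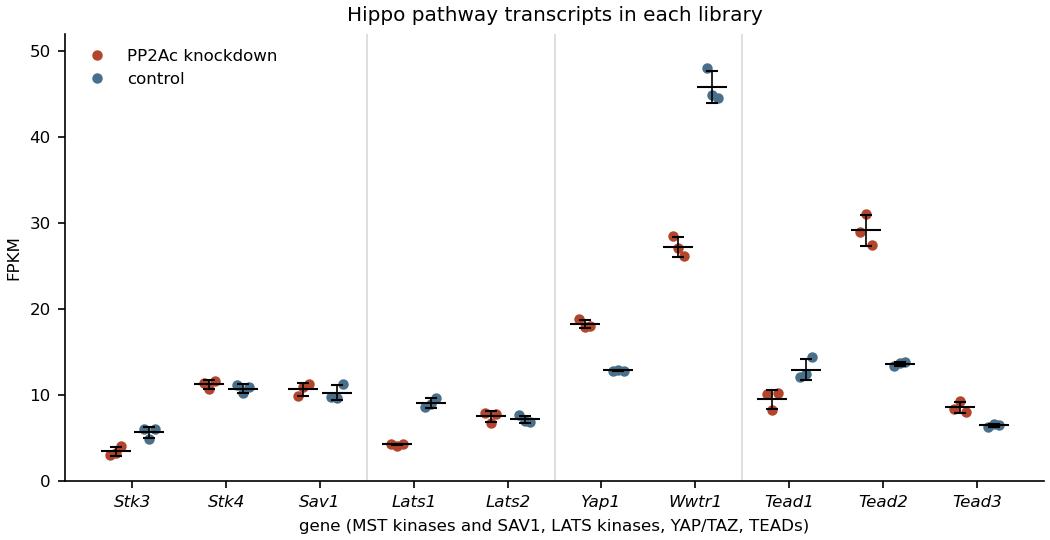
FPKM of each member in each library, with PP2Ac knockdown in red and control in blue. Points are libraries, and bars are the mean and SD of 3 libraries. The knockdown points of Tead2 lie between 27.5 and 31.1 FPKM, above all control points of that gene, and those of Wwtr1 lie between 26.1 and 28.5 FPKM, below all control points.

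The coactivators moved in opposite directions. Yap1 (ENSMUSG00000053110, chromosome 9, 7931999 to 8004596, minus strand, GRCm38) had 18.8, 17.9 and 17.98 FPKM in the knockdown libraries, against 12.8, 12.9 and 12.8 FPKM in the control libraries. Every knockdown library was above every control library. The means were 18.2 ± 0.486 FPKM in knockdown and 12.9 ± 0.0702 FPKM in control (SD, n = 3 each), or 142% of the control level, with a log2 change of 0.47 (SE 0.0609, limma adjusted p = 0.000271). Wwtr1 (ENSMUSG00000027803, chromosome 3, 57455649 to 57575910, minus strand), which encodes TAZ, had 28.5, 27.0 and 26.1 FPKM in the knockdown libraries, against 48.0, 44.9 and 44.6 FPKM in the control libraries. Here all 3 knockdown libraries were below all 3 control libraries. Mean Wwtr1 was 27.2 ± 1.20 FPKM in knockdown and 45.8 ± 1.88 FPKM in control (SD, n = 3 each), or 59.4% of control, with a log2 change of -0.73 (SE 0.0671, limma adjusted p = 5.17e-05).

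TAZ transcript was the more abundant of the pair in all 6 libraries. Yap1 made up 40.1% ± 0.577 of the summed Yap1 and Wwtr1 FPKM in knockdown and 21.9% ± 0.742 in control (SD, n = 3 each), while the sum itself was 45.4 ± 1.65 FPKM in knockdown and 58.7 ± 1.84 FPKM in control. The log2 ratio of Yap1 to Wwtr1 within a library, computed like the ratios below on FPKM + 1, was -0.58, -0.57 and -0.52 in knockdown and -1.83, -1.72 and -1.72 in control. Its difference was 1.20 (two-sided exact permutation p = 0.1, Benjamini-Hochberg adjusted p = 0.1 over 6 ratios; 0.1 is the smallest p that 3 against 3 libraries allow). Since Yap1 was above and Wwtr1 below control in every knockdown library, this p follows from those levels and adds no separate result.

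Because these 2 genes moved apart, the 250 bases before the start of each are shown, 5′ to 3′ on the gene's strand, from RefSeq on GRCm38.p6. Capitals mark the core of the TEAD binding motif, GGAATG or its reverse complement CATTCC.
Yap1 (chr9:8004597-8004846, minus strand): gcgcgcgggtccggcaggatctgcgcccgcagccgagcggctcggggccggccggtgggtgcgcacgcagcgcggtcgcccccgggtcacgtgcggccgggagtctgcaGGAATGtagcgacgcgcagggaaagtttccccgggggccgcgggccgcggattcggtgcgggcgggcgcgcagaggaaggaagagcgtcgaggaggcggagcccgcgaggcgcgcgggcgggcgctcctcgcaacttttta
Wwtr1 (chr3:57575911-57576160, minus strand): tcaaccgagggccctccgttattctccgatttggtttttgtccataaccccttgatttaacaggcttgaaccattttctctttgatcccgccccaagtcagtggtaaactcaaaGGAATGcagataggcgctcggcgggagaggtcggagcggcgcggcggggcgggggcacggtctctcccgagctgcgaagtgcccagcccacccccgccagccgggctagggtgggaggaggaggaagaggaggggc

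Each holds 1 match on its own strand, at bases -141 to -136 from the start of Yap1 and -136 to -131 from the first of the 2 Wwtr1 starts in the table. Among 8 members with an entry in the promoter table, which holds 250 bases before to 50 after each start, 5 had a match on either strand in at least 1 promoter: Yap1, Wwtr1, Tead3, Lats2 and Sav1. Of the 27025 genes in that table, 16.6% had a match. Those 5 include genes that rose, fell and did not pass the threshold. A match is only a description of these letters.

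Among the TEAD factors, which carry YAP and TAZ on DNA, Tead2 rose the most. Tead2 (ENSMUSG00000030796, chromosome 7, 45215753 to 45233644, plus strand) had 28.9, 31.1 and 27.5 FPKM in the knockdown libraries, against 13.4, 13.8 and 13.8 FPKM in the control libraries. The lowest knockdown library was far above the highest control library. The means were 29.1 ± 1.80 FPKM in knockdown and 13.6 ± 0.234 FPKM in control (SD, n = 3 each), a 2.14-fold level with a log2 change of 1.04 (SE 0.0687, limma adjusted p = 1.15e-05). Of all tested genes, 91.0% changed by less in size. Tead2 shares 13 exon bases with Cd37 on the opposite strand, and Cd37 had 119, 81 and 71 reads in knockdown and 7, 6 and 7 reads in control, against 1965 to 2277 reads for Tead2 in knockdown and 1022 to 1082 in control.

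Tead3 (ENSMUSG00000002249, chromosome 17, 28331671 to 28350817, minus strand) had 8.39, 9.28 and 8.03 FPKM in knockdown, against 6.28, 6.64 and 6.51 FPKM in control, without overlap between the groups. It rose by 0.35 on the log2 scale (SE 0.0751, limma adjusted p = 0.00367). Tead1 (ENSMUSG00000055320, chromosome 7, 112679318 to 112906807, plus strand) had 10.04, 8.20 and 10.2 FPKM in knockdown, against 12.1, 12.4 and 14.4 FPKM in control, again without overlap. Its log2 change was -0.41 (SE 0.102, limma adjusted p = 0.00763), so that 73.3% of the control level was left.

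The fourth family gene, Tead4, is not a member and did not pass the threshold, with 9.83 ± 0.463 FPKM in knockdown and 11.2 ± 0.219 FPKM in control (SD, n = 3 each; limma adjusted p = 0.0536). Summed over Tead1 to Tead4, the family came to 57.0 ± 1.82 FPKM in knockdown and 44.2 ± 1.66 FPKM in control. Tead2 made up 51.1% ± 1.53 of that sum in knockdown and 30.8% ± 0.752 in control, and Tead1 made up 16.7% ± 2.43 in knockdown and 29.2% ± 1.78 in control (SD, n = 3 each). Tead3 made up 15.0% ± 0.658 in knockdown and 14.7% ± 0.444 in control. Within a library, the log2 ratio of Tead1 to Tead2 was -1.53 ± 0.242 in knockdown and -0.07 ± 0.113 in control, that of Tead1 to Tead3 was 0.13 ± 0.254 in knockdown and 0.90 ± 0.120 in control, and that of Tead2 to Tead3 was 1.66 ± 0.0155 in knockdown and 0.97 ± 0.0166 in control (SD, n = 3 each). None of the 3 ratios overlapped between the groups, and each had the smallest exact permutation p possible, 0.1. For Tead1 to Tead2 and Tead1 to Tead3 this follows from the levels above, since both genes of each ratio moved apart without overlap.

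**Figure D2:**
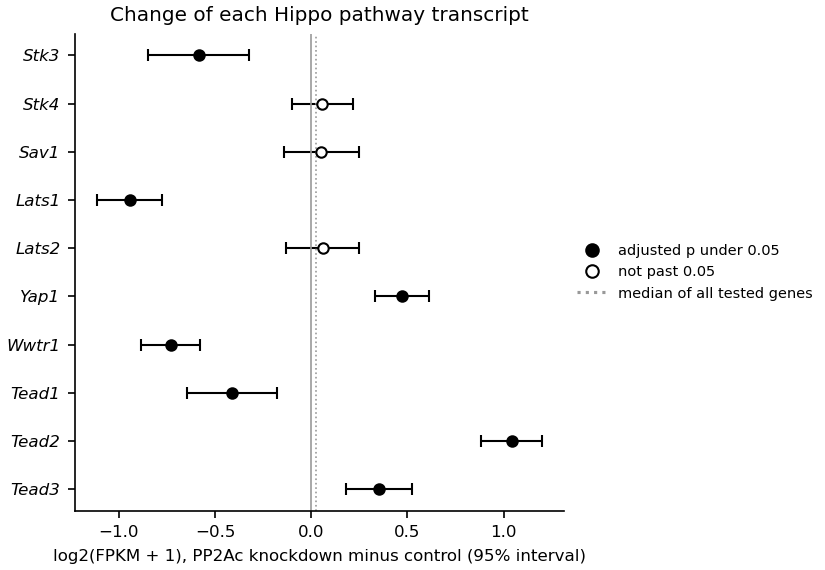
Log2 change of each member, PP2Ac knockdown minus control on log2(FPKM + 1), with its 95% interval from limma; filled points passed an adjusted p of 0.05 and open points did not. The dotted line is the median of all tested genes (0.03); Tead2 lies farthest to the right (1.04) and Lats1 farthest to the left (-0.94).

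Of the LATS kinases, which phosphorylate YAP and TAZ, Lats1 fell and Lats2 did not pass. Lats1 (ENSMUSG00000040021, chromosome 10, 7681214 to 7716460, plus strand) had 4.29, 4.11 and 4.29 FPKM in the knockdown libraries, against 8.55, 8.98 and 9.69 FPKM in the control libraries. The knockdown libraries lay close together and well below every control library, at 46.6% of the control mean. The log2 change was -0.94 (SE 0.0734, limma adjusted p = 2.48e-05) and -1.12 with limma voom on recovered reads, where that of Tead2 was 1.08, and the same transcript had 484, 459 and 468 reads in knockdown and 998, 1017 and 1161 reads in control. Lats2 (ENSMUSG00000021959, chromosome 14, 57689662 to 57758388, minus strand) had 7.92, 6.78 and 7.81 FPKM in knockdown, against 7.64, 6.99 and 6.82 FPKM in control, and the groups overlapped. Its log2 change was 0.06, with a 95% interval from -0.13 to 0.25 (limma adjusted p = 0.550).

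Lats1 was the more abundant LATS transcript in each control library and Lats2 in each knockdown library. Lats1 made up 36.1% ± 1.41 of the LATS sum in knockdown and 55.9% ± 2.95 in control, and the sum was 11.7 ± 0.734 FPKM in knockdown and 16.2 ± 0.272 FPKM in control (SD, n = 3 each). The log2 ratio of Lats1 to Lats2 was -0.75, -0.61 and -0.73 in knockdown and 0.14, 0.32 and 0.45 in control, a difference of -1.004 (two-sided exact permutation p = 0.1). In the annotation, 2955 exon bases of Lats2 are shared with Gm49361 on the same strand, which had at most 2 reads in a library, so how reads there were assigned is uncertain.

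The MST kinases and their scaffold followed the same layout, 1 relative lower and the others not past the threshold. Stk3 (ENSMUSG00000022329, chromosome 15, 34875496 to 35178921, minus strand), which encodes MST2, had 3.00, 3.28 and 4.04 FPKM in the knockdown libraries, against 6.06, 4.90 and 5.99 FPKM in the control libraries. The groups did not overlap, and the highest knockdown library and the lowest control library stood closer together than for Lats1. Stk3 was at 60.9% of control, with a log2 change of -0.58 (SE 0.114, limma adjusted p = 0.00241). It was the lowest member in both groups, and on the log2(FPKM + 1) scale the change of a gene at this level is understated: on recovered reads limma voom gave -0.74.

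Stk4 (ENSMUSG00000018209, chromosome 2, 164070322 to 164155524, plus strand), which encodes MST1, had 11.4, 10.6 and 11.6 FPKM in knockdown, against 11.1, 10.2 and 10.9 FPKM in control. Its log2 change was 0.06, with a 95% interval from -0.10 to 0.22 (limma adjusted p = 0.496). Sav1 (ENSMUSG00000021067, chromosome 12, 69965012 to 69987002, minus strand), which holds MST to LATS, had 9.81, 10.9 and 11.3 FPKM in knockdown, against 9.81, 9.67 and 11.3 FPKM in control, with a log2 change of 0.05 and a 95% interval from -0.14 to 0.25 (limma adjusted p = 0.605). Both genes overlapped between the groups, and a p above the threshold does not show equal levels. Of the exon bases of Sav1, 1336 are shared with Atl1 on the opposite strand, which had 31 to 44 reads in knockdown and 39 to 57 in control, against 799 to 888 reads for Sav1 in knockdown and 790 to 974 in control.

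Stk3 made up 23.4% ± 2.53 of the summed Stk3 and Stk4 FPKM in knockdown and 34.4% ± 1.64 in control, and the sum was 14.7 ± 0.868 FPKM in knockdown and 16.4 ± 1.15 FPKM in control (SD, n = 3 each). The log2 ratio of Stk3 to Stk4 was -1.63, -1.44 and -1.32 in knockdown and -0.78, -0.92 and -0.77 in control, a difference of -0.64 (two-sided exact permutation p = 0.1).

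**Figure D3:**
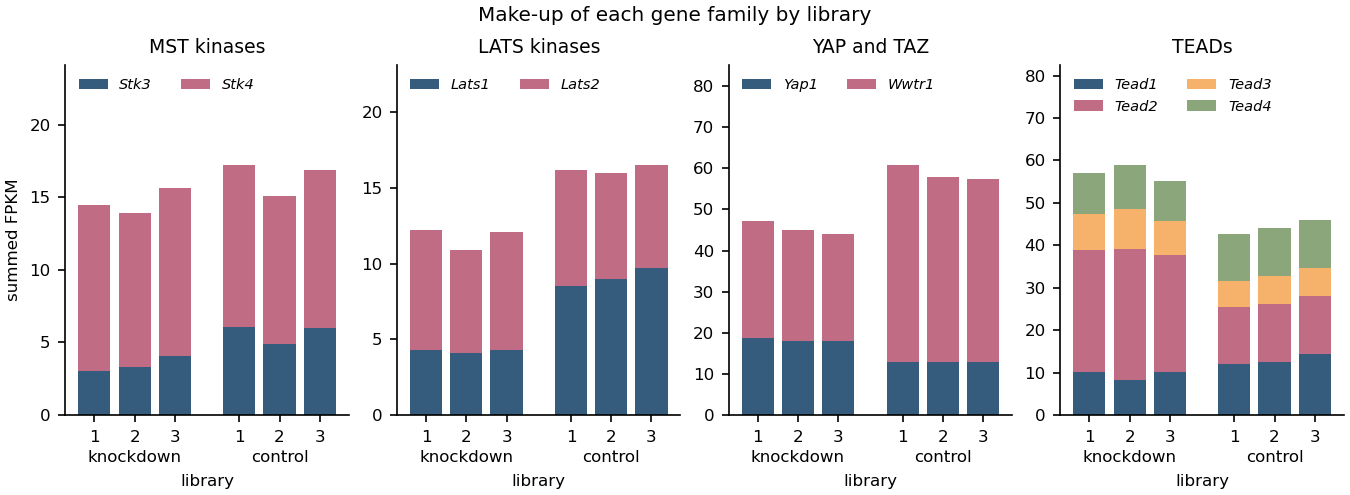
Summed FPKM of each gene family in each library, stacked by gene, with the 3 knockdown libraries left of the 3 control libraries; the panels have separate axes, all from 0. Lats1 is the smaller part of the LATS sum in each knockdown library, and Tead2 makes up 51.1% of the TEAD sum in knockdown on average.

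Ranked by FPKM, a scale set per gene length, Tead2 (29.1), Wwtr1 (27.2) and Yap1 (18.2) led in knockdown, followed by Stk4 (11.2), Sav1 (10.7), Tead1 (9.49), Tead3 (8.57), Lats2 (7.504), Lats1 (4.23) and Stk3 (3.44). In control, Wwtr1 (45.8) stood alone above Tead2 (13.6), Tead1 (12.9) and Yap1 (12.9), followed by Stk4 (10.7), Sav1 (10.2), Lats1 (9.07), Lats2 (7.15), Tead3 (6.48) and Stk3 (5.65). Neighbours whose libraries overlapped were Tead2 with Wwtr1, Stk4 with Sav1, Sav1 with Tead1, and Tead1 with Tead3 in knockdown. In control they were Tead2 with Tead1, Tead1 with Yap1, Stk4 with Sav1, and Sav1 with Lats1.

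Upstream of the MST and LATS kinases, 18 of 26 listed regulators entered the test; 8 rose, 4 fell and 6 missed the threshold (66.7% called, against 62.4% of all tested genes), with a median log2 change of 0.10. Fat1, an atypical cadherin, averaged 26.5 ± 3.19 FPKM in knockdown and 12.5 ± 1.004 FPKM in control, and Dlg5, a polarity scaffold that restrains MST in mammalian cells, 20.4 ± 1.03 FPKM in knockdown and 7.35 ± 1.22 FPKM in control (SD, n = 3 each). Wwc2, a relative of the scaffold KIBRA, averaged 18.5 ± 1.17 FPKM in knockdown and 11.2 ± 1.15 FPKM in control. KIBRA itself (Wwc1) went the other way, at 1.79 ± 0.433 FPKM in knockdown and 2.91 ± 0.440 FPKM in control (limma adjusted p = 0.0140). Taok1, a kinase that activates MST, was lower, at 5.22 ± 0.657 FPKM in knockdown and 10.4 ± 1.23 FPKM in control. The limma adjusted p values of Fat1, Dlg5, Wwc2 and Taok1 ran from 2.60e-05 for Dlg5 to 0.000261 for Wwc2.

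Of 26 listed LATS partners and proteins that bind YAP, TAZ or TEAD, 22 entered the test; 11 rose, 6 fell and 5 missed the threshold (77.3% called, against 62.4% of all tested genes) and a median log2 change of 0.16. Both MOB1 genes, which encode the activating partner of LATS, were among the 6 that fell. Mob1a averaged 50.3 ± 3.00 FPKM in knockdown and 72.8 ± 8.86 FPKM in control, and Mob1b 2.71 ± 0.364 FPKM in knockdown and 6.31 ± 0.629 FPKM in control (SD, n = 3 each, limma adjusted p = 0.00210 and 0.000107). Amotl1, an angiomotin that binds YAP, averaged 20.2 ± 0.893 FPKM in knockdown and 38.0 ± 2.55 FPKM in control. The other angiomotins rose (limma adjusted p = 0.000365 for Amot and 0.000990 for Amotl2). Amot averaged 5.79 FPKM in knockdown and 2.72 FPKM in control, and Amotl2 34.7 FPKM in knockdown and 26.3 FPKM in control. Csnk1e, a casein kinase with a part in the destruction of YAP, averaged 11.5 ± 0.453 FPKM in knockdown and 19.4 ± 0.349 FPKM in control. Its more abundant relative Csnk1d rose, with 42.8 FPKM in knockdown and 34.3 FPKM in control (limma adjusted p = 0.00357). Ywhaq, a 14-3-3 gene whose family retains phosphorylated YAP and TAZ in the cytoplasm, averaged 54.9 ± 2.53 FPKM in knockdown and 28.7 ± 2.67 FPKM in control. The family did not move as 1: Ywhab and Ywhah also rose, and Ywhae, Ywhag and Ywhaz did not pass the threshold. Sfn fell, with 1.14 FPKM in knockdown and 3.00 FPKM in control (limma adjusted p = 0.000202). Vgll4, which competes with YAP for TEAD, averaged 10.9 ± 0.804 FPKM in knockdown and 5.68 ± 0.259 FPKM in control. The limma adjusted p values of Amotl1, Csnk1e, Ywhaq and Vgll4 ran from 3.54e-05 to 5.53e-05.

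Transcripts of a 22-gene signature of YAP and TAZ targets, known from human cancers, went mostly but not all upward. Of the 15 that entered the test, 11 rose, 2 fell and 2 missed the threshold, against 33.3% higher and 29.1% lower over all tested genes, and the median log2 change was 0.39 against 0.03. The signature includes the member Lats2, and without it 11 of 14 were higher and 2 lower. Amotl2 and Ptpn14, which rose, are also in the list of LATS partners and binding proteins and are counted in both. Ctgf (also called Ccn2), a secreted matricellular protein and classic target, had 43.2, 37.2 and 37.7 FPKM in the knockdown libraries, against 6.29, 8.54 and 9.92 FPKM in the control libraries. That is a 4.77-fold level, with a log2 change of 2.14 (SE 0.142, limma adjusted p = 1.16e-05). Cyr61 (also called Ccn1), its relative, averaged 137 ± 8.19 FPKM in knockdown and 69.2 ± 6.95 FPKM in control, and Gadd45b, a stress-response gene, 28.5 ± 2.10 FPKM in knockdown and 10.8 ± 1.75 FPKM in control (SD, n = 3 each).

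The lower signature genes were as clear in their direction. Ankrd1, which encodes a muscle ankyrin repeat protein and is another classic target, had 15.6, 14.7 and 17.3 FPKM in the knockdown libraries, against 48.6, 41.7 and 43.0 FPKM in the control libraries. Its log2 change was -1.43 (SE 0.0874, limma adjusted p = 8.98e-06). F3, which encodes tissue factor, had 5.66, 4.88 and 5.88 FPKM in the knockdown libraries, against 17.4, 15.3 and 16.7 FPKM in the control libraries, also a log2 change of -1.43 (limma adjusted p = 8.28e-06). In both genes all knockdown libraries were below all control libraries. The 6 fibroblast and stromal markers with a mean FPKM of at least 1, given above, also rose in knockdown. Their part in the signature's changes was not tested.

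The stretch around the TEAD core motif in the promoters of Ankrd1, which fell, and of Cyr61, which rose, is shown for comparison, 5′ to 3′ on the gene's strand, from RefSeq on GRCm38.p6, with the motif in capitals.
Ankrd1, first match (chr19:36120031-36120072, minus strand): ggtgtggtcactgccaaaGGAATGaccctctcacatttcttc
Ankrd1, second match (chr19:36119944-36119985, minus strand): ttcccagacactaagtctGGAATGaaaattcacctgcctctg
Cyr61 (chr3:145650065-145650106, minus strand): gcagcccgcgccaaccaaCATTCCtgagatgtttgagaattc

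The matches lie at bases -210 to -205 and -123 to -118 from the start of Ankrd1, and at -103 to -98 from that of Cyr61, there on the opposite strand. Of 15 signature genes with a promoter entry, 7 had a match, against 16.6% of all genes. Of these 7, Amotl2, Cyr61, Axl, Crim1 and Ptpn14 rose, Ankrd1 fell and Lats2 did not pass the threshold. The other 7 signature genes, Ctgf among them, had no promoter entry. A link between a match and the direction of change was not tested.

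**Figure D4:**
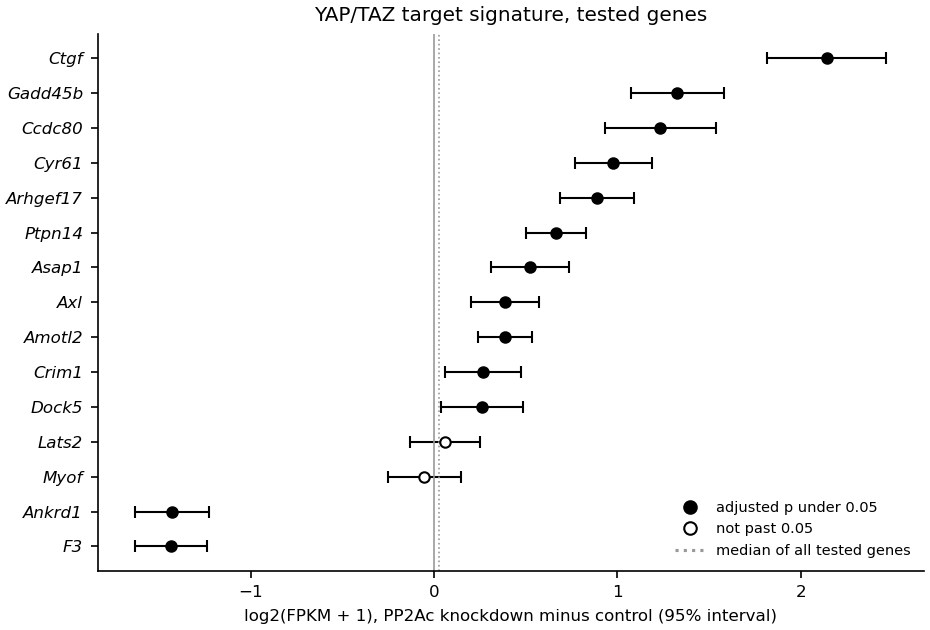
Log2 change, PP2Ac knockdown minus control on log2(FPKM + 1) with its 95% interval from limma, of the 15 tested genes of the YAP/TAZ target signature; filled points passed an adjusted p of 0.05 and open points did not. Ctgf lies farthest to the right (2.14), Ankrd1 and F3 farthest to the left (both -1.43), and Lats2 and Myof did not pass.

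STRIPAK, the assembly through which PP2A acts on the MST kinases, had 14 of 16 listed genes in the test; 3 rose, 6 fell and 5 missed the threshold (64.3% called, against 62.4% of all tested genes) and a median log2 change of -0.16. The count includes the targeted gene Ppp2ca; without it 3 of 13 were higher and 5 lower. Stk24, a kinase of the complex related to MST, averaged 35.1 ± 2.08 FPKM in knockdown and 18.9 ± 1.06 FPKM in control, and Strn4, a striatin, 28.7 ± 1.26 FPKM in knockdown and 20.2 ± 0.925 FPKM in control. Mob4, a MOB-family subunit, averaged 5.93 ± 0.787 FPKM in knockdown and 12.2 ± 1.68 FPKM in control (SD, n = 3 each; limma adjusted p = 3.83e-05, 0.000424 and 0.000246 for Stk24, Strn4 and Mob4).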

How the data were processed

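The authors deposited 1 table of FPKM values per gene, made from total RNA (Trizol, Illumina TruSeq) per the labels' protocols, which speak of frozen tissue although the samples are labelled as a cell line. Per the submitters' processing notes the builds are GRCm38 and mm10; aligner, counter and strandedness were not given in the sources used here. FPKM times gene length was a whole multiple of 1 step per library for 100% of non-zero values (within 0.01), which gave the reads per gene; member lengths and positions equal merged exons and positions in GENCODE M21. Genes averaging 1 FPKM or more over the 6 libraries (11652) were fitted on log2(FPKM + 1) by limma 3.58.1 under R 4.3.3, with a trended eBayes prior and Benjamini-Hochberg adjustment over all of them. Differences are knockdown minus control. Limma voom on recovered reads called 7378 genes. Ratios were tested with exact permutations (scipy 1.17.1, Python 3.11.15). The fit was also run on simulated data with at most 200 changed genes. The main fit called 7267 genes here, so that run does not show its behaviour at this share. Members, lists and tests were chosen with earlier results of these data known. Genes named beyond the members are the targeted gene, up to 4 per list with the smallest p, and Tead4, Mob1a, Mob1b and Cyr61, which describe a family or list. Promoters of Tead1, Stk3 and 7 signature genes had no entry and were not used here. Some marker genes are not reported here by name.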

Additional observations from a re-analysis of the deposited data

How the results depend on the processing

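Under 17 alternative settings (pseudocounts, filters, scalings, variance model, voom, replicate block, each library left out), the 7 called members kept their direction and stayed past the threshold wherever they were tested. With a mean FPKM of at least 5, Stk3 was not tested and 6 members were called. Lats2, Stk4 and Sav1 passed under none, and changed sign with protein-coding genes only (-0.0287, -0.0346 and -0.0381) and with mitochondrial genes, rRNA and Gm23935 removed (-0.0059, -0.0115 and -0.0154). Tead4 passed under 5 settings. Ratio differences grew with pseudocounts of 0.1 (Lats1/Lats2 -1.15) and 0.01 (Lats1/Lats2 -1.17, Yap1/Wwtr1 1.25, Stk3/Stk4 -0.78), since a smaller pseudocount compresses low values less. Leaving out each library gave 6473 to 6949 called genes and 11 to 13 called signature genes. With median-of-ratios scaling, 9 of 15 tested signature genes rose and 2 fell. With no filter on low values, 9 of 19 rose and 3 fell. Crim1 and Dock5 were the signature calls nearest the threshold (limma adjusted p = 0.0308 and 0.0427). Same-numbered libraries did not deviate together in every pair (r from -0.01 to 0.16), so the numbers were not taken as pairs. With the replicate block 7363 genes and 7 members were called, and no member's call changed.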

Other observations

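Over the 6 libraries, the protein-coding genes whose log2(FPKM + 1) followed a member most closely were ranked by Pearson r, which mainly reflects the shared difference between the groups. For Yap1 they were Fbln5, Smad6 and Spats2 (r = 0.999 each). Fbln5, an elastic fibre gene, averaged 15.9 FPKM in knockdown and 3.43 FPKM in control, and Smad6, an inhibitor of BMP signalling, 3.78 FPKM in knockdown and 0.306 FPKM in control. For Wwtr1 they were Rpl34, Hdac4 and Epg5, and for Tead1 they were Kmt2a, Seh1l and Ccdc167. Lats2, which did not pass the threshold, was followed most closely by Rps27rt, Ncbp3 and Pcgf3 (r = 0.981, 0.970 and 0.949).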
